A study of Mus musculus with 144 samples.

Results

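Apolipoproteins are the protein part of the particles that carry lipid in blood, and the liver is a main source of them. The 10 genes described here, Apoa1, Apoa2, Apoa4, Apoa5, Apob, Apoc1, Apoc3, Apoe, Apoh and Apom, were chosen by name as apolipoprotein genes of mouse liver. The rule uses no values, although earlier results of these data were known when it was made. Other apolipoprotein genes, such as Apoc2 and Apoc4, are not among the 10. They are 10 of the 51912 rows of the deposited gene count table. The filtered list of polyadenylation sites, the places where transcripts are cut and given a poly(A) tail, holds 38 sites in these genes among 29199 sites in all.

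Livers of male C57BL/6J mice were sampled at 6 zeitgeber times (ZT, hours after lights on: ZT2, 6, 10, 14, 18 and 22) in a facility lit for 12 h of every 24 h, fed and watered freely and left untreated. Total RNA came from wild-type and from Bmal1-/- mice, which carry a disrupted gene for the clock factor BMAL1. Nuclear RNA came from wild-type nuclei spun through a sucrose cushion, and polysomal RNA, the RNA bound by several ribosomes, from sucrose gradient fractions of wild-type tissue lysed with cycloheximide, which holds ribosomes on their messages. Each of the 4 kinds of sample has 36 libraries of 3′ mRNA sequencing, 6 at each time. The labels do not say whether the 6 are separate animals, so the p-values measure only the spread between these libraries.

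Lipoprotein particles other than high-density lipoprotein (HDL) are built on apolipoprotein B, which stays with them, while the smaller apolipoproteins exchange between particles. Apoa1 and Apoa2 encode the main proteins of HDL. The C group, Apoe and Apoa5 act on how particles are broken down and taken up: APOC3 inhibits lipoprotein lipase, APOA5 promotes its action, and APOE is a ligand for uptake into cells. In the clock, BMAL1 with its partner CLOCK binds the E-box CACGTG and drives, among others, the REV-ERB repressors, which bind sites that hold AGGTCA.

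Members share places in the genome as well as function. Apoa1 (chr9:46228630-46230469), Apoc3 (chr9:46233050-46235636), Apoa4 (chr9:46240844-46243458) and Apoa5 (chr9:46268608-46271921) are neighbours on chromosome 9, with Apoc3 on the minus strand and the other three on the plus strand. Apoc1 (chr7:19689480-19692659) and Apoe (chr7:19696244-19701310) lie side by side on the minus strand of chromosome 7. The remaining genes stand alone at chr1:171221564-171226379 (Apoa2), chr12:7977629-8016839 (Apob), chr11:108395297-108414396 (Apoh) and chr17:35128997-35131801 (Apom). Gene positions are from RefSeq, build GRCm38.p6.

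The 250 bases before each start were held for 8 of the 10 members in RefSeq (GRCm38.p6), and 5 motifs were searched there on both strands. Some genes have more than 1 start, with 32851 windows over 27025 genes. CACGTG was found in 1 member, Apoa5, and in 6.86% of 27025 genes with such a window. AGGTCA was found in 2 members, Apoa2 and Apoh (15.8% of genes), and TATAAA in 4, Apoa2, Apoa5, Apob and Apoe (14.3% of genes). The Apoa2 matches lie before different starts, AGGTCA in the window chr1:171221314-171221613 and TATAAA in chr1:171224804-171225103. The Apoe match is in chr7:19698572-19698871, inside the gene span given above. CAAAGTCCA, a form of the HNF4 site, and TTATGNAA, a form of the D-box, were found in 0 of the 8 (0.451% and 3.63% of genes). The Apoa5 and Apoh windows are shown because Apoa5 was the member with a called daily rhythm and Apoh the member with no overlap between genotypes. The stretch of Apoa5, chr9:46268488-46268607 on the plus strand, 5′ to 3′, runs up to the start of the gene span given above. Capitals mark CACGTG, 82 to 77 bases before that start, and TATAAA, 31 to 26 bases before it. The stretch of Apoh is chr11:108395077-108395296 on the plus strand, and capitals mark AGGTCA read on the other strand (TGACCT), 215 to 210 bases before the start.
Apoa5: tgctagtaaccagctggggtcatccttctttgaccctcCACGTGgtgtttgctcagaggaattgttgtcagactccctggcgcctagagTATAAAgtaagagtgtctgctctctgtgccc
Apoh: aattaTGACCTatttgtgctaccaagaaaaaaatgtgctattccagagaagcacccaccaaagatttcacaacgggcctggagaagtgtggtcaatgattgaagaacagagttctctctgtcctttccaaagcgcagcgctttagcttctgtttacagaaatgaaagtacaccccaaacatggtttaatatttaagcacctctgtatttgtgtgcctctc
These matches describe the letters and show no binding.

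Depth, as the sum of gene counts, ran from 1662449 to 14281894 per library with a median of 6431391. Hepatocyte markers (Alb, Ttr, Cps1, Cyp2e1 and Serpina1c) summed to a median of 75979 CPM (counts scaled to a library total of 1000000) in wild-type total RNA, 41480 in nuclear, 36166 in polysomal and 59336 in Bmal1-/- RNA. Arntl, the gene of BMAL1, was counted in the Bmal1-/- libraries too (5.17 to 18.6 CPM, against 0.251 to 19.3 in wild-type total RNA, edgeR log2 change 1.24, SE 0.12, adjusted p 4.23e-13). The deleted stretch is not given in the sources used here, so this 3′ count does not check the genotype label. Dbp, a gene that BMAL1 drives, had a median of 2.60 CPM in Bmal1-/- and 5.09 CPM in wild-type total RNA, with all times pooled. Its means were 2.74 CPM (1.14 to 4.77) in Bmal1-/- and 27.0 CPM (0.207 to 137) in wild-type total RNA. Some libraries stood apart: wild-type total ZT2 replicate 4 and Bmal1-/- ZT18 replicate 5 correlated least with the rest of their series (r 0.844 and 0.874), and 4 libraries, 1 of each kind and all at ZT22, held Xist above 100 CPM although the mice were labelled male. Polysomal replicate 1 also stood apart for several members. For several results the values are given with and without these libraries.

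In wild-type total RNA the 10 genes together took 3.99% ± 0.575 (SD, n = 36) of all gene counts. A 3′ library counts transcripts near their ends, without regard to length, so CPM can be set side by side between genes. Apob is the main exception: most of its counts came from far inside the gene, and its place in the order is uncertain for that reason. Upstream sites also gave part of the site counts of Apoc1 (26.2%), Apoh (25.9%) and Apom (20.2%), and most of those of Apoa5 (88.7% at a site 423 bp before its end). Apoe was the highest, at 22525 CPM ± 4257 (SD, n = 36). Apoa2 (5109.8 ± 902), Apoc1 (4250.4 ± 698) and Apoa1 (3551 ± 870) came next, with ranges over libraries that overlapped from each to the next. Apoc3 stood at 1691 ± 317 CPM, Apoh at 1096 ± 148, Apob at 813 ± 204 and Apoa5 at 564 ± 121. Neighbours in that order overlapped as well, and the lowest pair were Apom at 308 ± 115 and Apoa4 at 30.3 ± 15.99 CPM, which did not overlap (150.5 to 539 against 13.3 to 83.9 CPM). Apoa4 is known mainly as an intestinal gene.

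**Figure D1:**
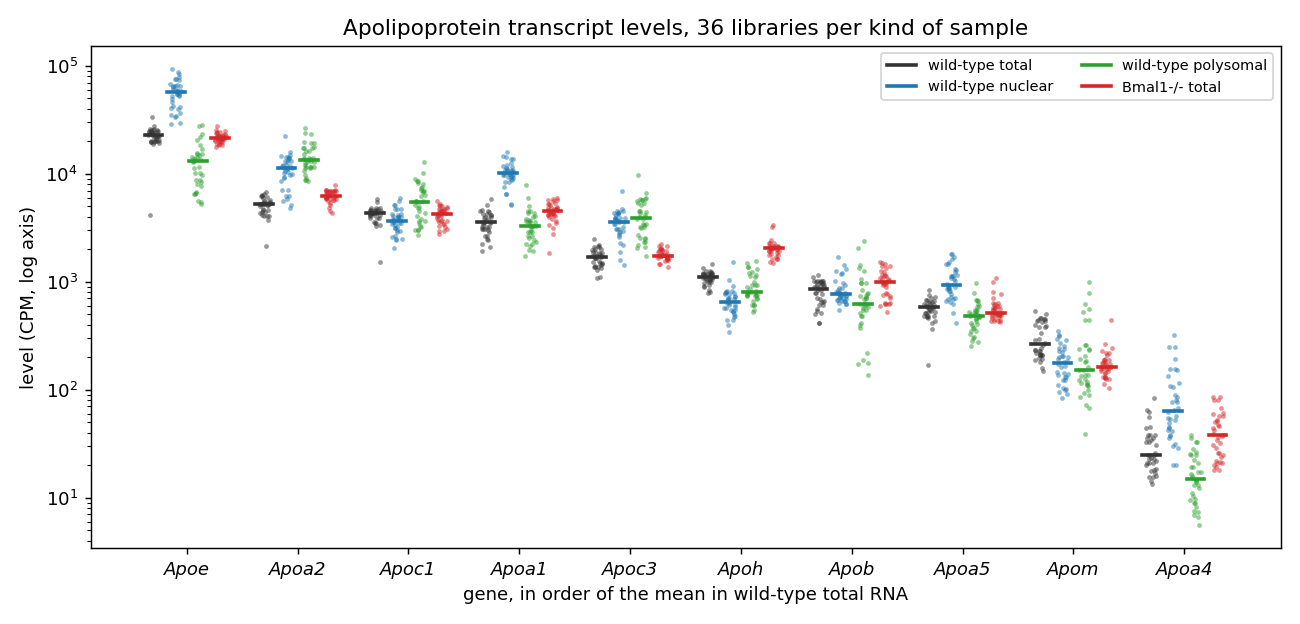
Level of each gene in CPM (log axis) in every library, with 36 points and a median line for each kind of sample. Genes are ordered by their mean in wild-type total RNA, from Apoe at 22525 CPM to Apoa4 at 30.3 CPM.

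Which of these genes differed with genotype was asked by setting Bmal1-/- beside wild-type total RNA, averaged over the day. Apoh, Apoa1 and Apoa2 rose and Apom fell, and the other 6 did not pass the test. These 4 of 10 calls stand beside 44.2% of the 12082 genes tested (edgeR, adjusted p under 0.05), with 21.7% of genes called higher and 22.4% lower. The median log2 change of the 10 genes was 0.08, against -0.00075 over all genes. The count changed with the setting: it was 5 with DESeq2 (Apoa4 in addition) and 5 with a replicate block (Apob in addition), 7 without the libraries that stood apart, 7 in replicates 1 to 3, 3 in replicates 4 to 6, and 2 when all 4 kinds of sample shared 1 fit.

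Apoh encodes beta-2-glycoprotein I, a plasma protein that binds phospholipid surfaces. In Bmal1-/- its lowest library held 1495 CPM, the median 2039.7 and the highest 3325, whereas wild-type total RNA ran from 783 through a median of 1105 to 1469. In plain CPM, every one of the 36 Bmal1-/- libraries was above all 36 wild-type libraries, with the closest at 1495 and 1469 CPM. Only 5 of the genes tested, 0.0414%, showed such a separation with Bmal1-/- higher, and 0.0166% with it lower. These separations are in CPM and were not checked after the TMM scaling on which the log2 change rests. The log2 change was 0.80 (SE 0.05, adjusted p 2.23e-20), a 1.74-fold rise. It was 0.61 (adjusted p 1.37e-10) in replicates 1 to 3, 0.97 (1.11e-10) in replicates 4 to 6 and 0.76 without the libraries that stood apart. By time, mean Apoh was between 1849 and 2383 CPM in Bmal1-/- and between 1063 and 1122 CPM in wild type. The separation at each of the 6 times follows from that of all 36 libraries and adds nothing to it.

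Apom encodes a small HDL protein that carries sphingosine-1-phosphate. Its level in Bmal1-/- was 104 CPM at the lowest, 163 at the median and 445 at the highest, against 150.5, 267 and 539 CPM in wild-type total RNA. The groups overlapped: 12 Bmal1-/- libraries lay below every wild-type one and 6 wild-type libraries above every Bmal1-/- one. Apom fell by 0.93 on the log2 scale (SE 0.12, adjusted p 1.27e-09), with the Bmal1-/- mean lower at each of the 6 times. Wild-type replicates 5 and 6 stood high, at means of 449 and 446 CPM, while replicates 1 to 4 had means from 218 to 270.2 CPM. The change was accordingly -0.52 in replicates 1 to 3 (adjusted p 0.000295) and -1.24 in replicates 4 to 6 (2.46e-07), and the difference between these sets was not tested.

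**Figure D2:**
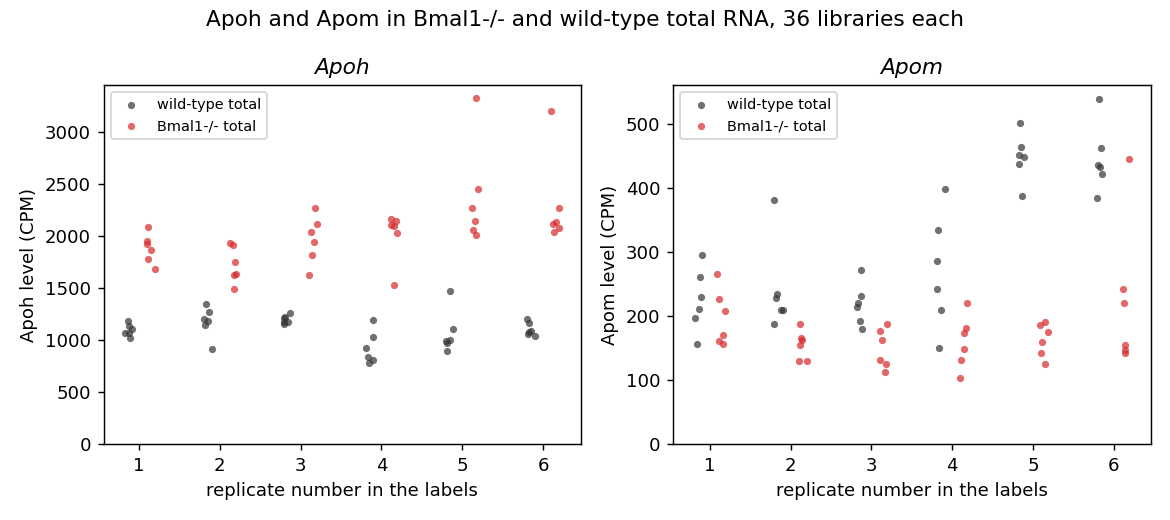
Apoh and Apom in CPM by the replicate number of the labels, with 6 libraries (1 per time) of each genotype at each number. All Bmal1-/- points for Apoh lie above the highest wild-type point (1469 CPM), and wild-type Apom is highest in replicates 5 and 6 (means 449 and 446 CPM).

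The 2 main HDL genes moved less. Apoa1 had a median of 4505 CPM in Bmal1-/- (lowest 1830, highest 5916) and 3549 CPM in wild type (1911 to 5895), so the groups overlapped almost wholly. Its log2 change was 0.23 (SE 0.09, adjusted p 0.0222). Apoa2 had a median of 6268 CPM (4297 to 7879) against 5236 (2157 to 6749), a log2 change of 0.19 (SE 0.06, adjusted p 0.00803), with 11 Bmal1-/- libraries above every wild-type one. Neither call was kept in replicates 4 to 6, where the changes were 0.05 (adjusted p 0.713) and 0.09 (0.514), nor in the fit of all 4 kinds of sample, with adjusted p of 0.0575 and 0.128.

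Among the genes that did not pass, Apoe (log2 -0.15, adjusted p 0.0811), the ligand for particle uptake, and Apoc1 (-0.14, adjusted p 0.0727), known as an inhibitor of lipase action, depended on the libraries used. In replicates 1 to 3 both passed, at -0.27 (adjusted p 0.00222) and -0.36 (0.000172), and in replicates 4 to 6 neither did, at -0.0064 (0.974) and 0.076 (0.591). Without the libraries that stood apart both passed, at -0.19 (adjusted p 0.000734) and -0.18 (0.00844), and so did Apoa5 (-0.13, 0.0486). In wild-type total ZT2 replicate 4, Apoe was at 4158 CPM, where the other libraries of that time held at least 21684 CPM. Apoa4 had a log2 change of 0.34 (adjusted p 0.0707) that was -0.25 in replicates 1 to 3 (adjusted p 0.415) and 1.01 in replicates 4 to 6 (5.76e-06), and with DESeq2 it passed on all libraries (adjusted p 0.0461). Beside it, enterocyte markers summed to a mean of 35.2 CPM in Bmal1-/- and 77.01 CPM in wild type, and their part in the Apoa4 values was not tested. Of the 4 markers, Sis had 0 counts in every wild-type total library, so that sum rests on the others. The same sum averaged 13.2 CPM in nuclear RNA and 80.3 CPM in polysomal RNA. Apob (0.19, adjusted p 0.113), the scaffold protein, and Apoc3 (-0.03, adjusted p 0.731), the lipase inhibitor, did not pass, and their 95% intervals ran from -0.0031 to 0.38 and from -0.14 to 0.08. Apob passed with a replicate block (0.17, adjusted p 0.0313) and in replicates 1 to 3 (0.23, 0.0288), but not in replicates 4 to 6 (0.13, 0.505).

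The log2 changes use TMM scaling, whose factors had a median of 1.03 in Bmal1-/- and 0.964 in wild-type total RNA, so plain CPM ratios sit higher. For Apoc3 and Apoa5 the ratio of mean CPM was 1.05 and 1.01 and thus had the opposite sign from the fitted change. Beside these results, stellate cell markers summed to a mean of 361 CPM in Bmal1-/- and 284 in wild type, cholangiocyte markers to 62.3 and 23.9, and hepatocyte markers to 63251 and 74925. Their part in the results was not tested, and in bulk liver fewer cells of a type and less RNA per cell cannot be told apart.

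**Figure D3:**
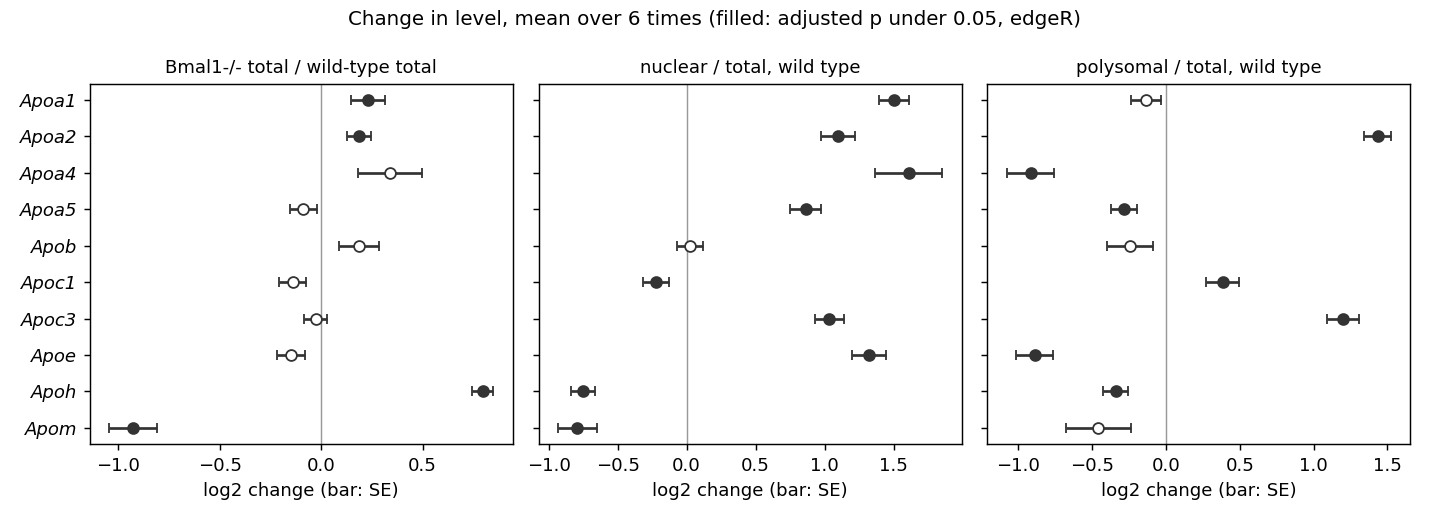
Fitted log2 change of each gene, averaged over the 6 times, for Bmal1-/- against wild-type total RNA, nuclear against total and polysomal against total wild-type RNA; bars are SE and filled points passed (edgeR, adjusted p under 0.05). Apoh (0.80) and Apom (-0.93) stand out in the first panel, and the fractions spread the genes from -0.91 to 1.61.

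Genes that act with the apolipoproteins were followed as 5 lists. Of 9 genes for assembly and secretion of apoB particles, 4 were called and all 4 were lower in Bmal1-/-, among them Sar1b (log2 -0.38), a GTPase of the vesicles that leave the endoplasmic reticulum, Sort1 (-0.36), a sorting receptor, and Mttp (-0.16), which loads lipid onto apoB. Among remodelling genes Lpl, lipoprotein lipase, rose by 3.55, while Lipg, endothelial lipase, and Pltp, the phospholipid transfer protein, fell by 2.42 and 2.08. That list had 5 of 9 called, 2 higher and 3 lower. For receptors and lipid export 5 of 12 were called, 4 higher and 1 lower, with Scarb1, the HDL receptor, at 0.60, Mylip, a ubiquitin ligase, at 0.51, and Abcg5, a sterol exporter, at 0.46. Transcription factors known at apolipoprotein promoters had 10 of 14 called, 3 higher and 7 lower, led by the REV-ERB genes Nr1d1 (-3.39) and Nr1d2 (-2.79). Other apolipoproteins and HDL proteins had 5 of 10 tested genes called, 3 higher and 2 lower, with Saa4 at -1.22, Apon at 0.38 and Apoo at -0.32. All list shares stand beside the 44.2% of genes called.

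Over the day, the question was whether any of these genes followed a 24 h wave. Apoa5 did in wild-type total RNA and was the 1 of 10 members called, beside 18.9% of 11964 genes. The lowest, median and highest libraries were 169, 445 and 579 CPM at ZT2, 479, 521 and 645 at ZT6, and 533, 610.2 and 675 at ZT10. In the dark they were 584, 648 and 839 CPM at ZT14, 508, 662 and 751 at ZT18, and 435, 517 and 608 at ZT22. The medians were lowest at ZT2 and highest at ZT18, and the libraries of neighbouring times overlapped. The fitted wave peaked at ZT14.5, early in the dark, with a peak-to-trough ratio of 1.54 (log2 0.62, adjusted p 0.00333, DESeq2 adjusted p 0.000443).

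The Apoa5 call did not hold in every setting. Its log2 amplitude from peak to trough was 0.53 in replicates 1 to 3 (adjusted p 0.00847) and 0.79 in replicates 4 to 6, where the adjusted p was 0.119, and in the fit of all 4 kinds of sample the adjusted p was 0.0831. Without the libraries that stood apart, one of which was the lowest Apoa5 library at ZT2, it was 0.51 (adjusted p 0.00113). Nuclear Apoa5 had its highest time mean at ZT14 too (1270.1 CPM ± 455, SD, n = 6, against a lowest of 822 ± 230.02 at ZT6), and so had polysomal Apoa5 (574 ± 232), but neither passed (adjusted p 0.74 and 0.41). In Bmal1-/- the highest mean was 729 ± 239 CPM at ZT18 and the lowest 472 ± 36.9 at ZT6, with an unadjusted p of 0.0115 and an adjusted p of 1. The difference in rhythm between genotypes did not pass for Apoa5 (adjusted p 0.547), so its wave is not shown to differ between them.

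**Figure D4:**
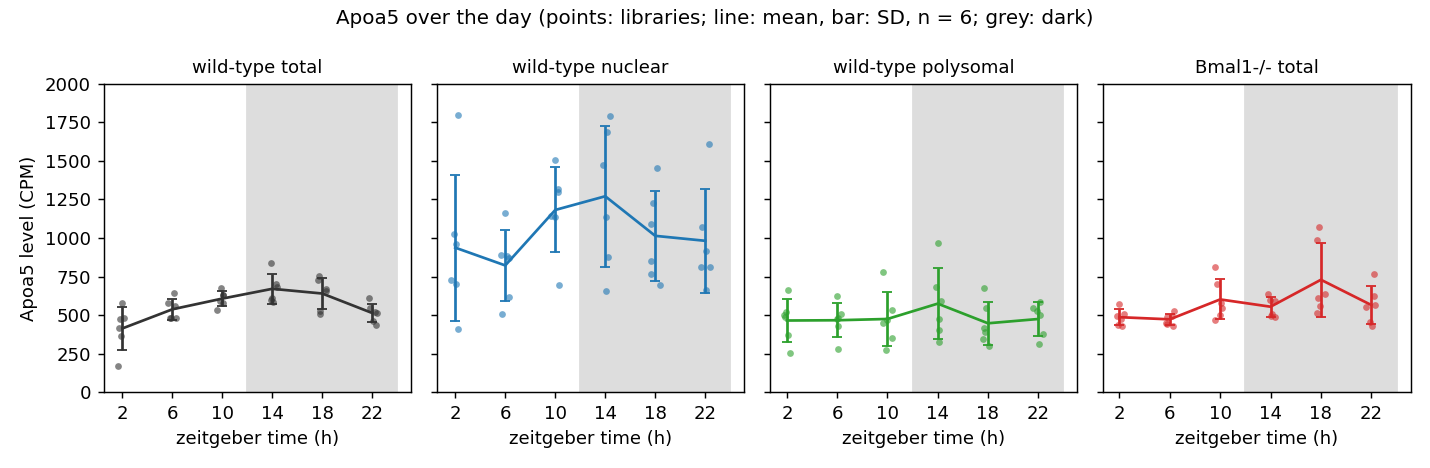
Apoa5 in CPM against zeitgeber time in the 4 kinds of sample, with a point per library, the mean as a line, SD bars (n = 6) and the dark hours in grey. Wild-type total RNA runs from a mean of 414 CPM at ZT2 to 670.2 CPM at ZT14, and nuclear RNA shows the widest spread between libraries.

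The other 9 members were not called in wild-type total RNA. Time means in wild-type total RNA differed between their highest and lowest by 1.06-fold for Apoh, 1.09-fold for Apoc1, 1.16-fold for Apoa2 and Apob, 1.17-fold for Apoa1, 1.18-fold for Apom, 1.20-fold for Apoe and 1.25-fold for Apoc3. Apoa4 spanned 1.54-fold but varied up to 83.9 CPM within ZT22 alone. With edgeR, 0 of 10 were called in nuclear RNA (5.99% of genes), 0 in polysomal RNA (7.9%) and 0 in Bmal1-/- (0.00825%). At an unadjusted p under 0.05 these counts were 0, 0 and 2, the 2 being Apoa5 and Apoa4, and DESeq2 called 0 in each. Tests of a rhythm that differs from wild-type total RNA called 0 of 10 for Bmal1-/- (5.11% of genes), 0 for nuclear and 0 for polysomal RNA (0% of genes each). An unadjusted p under 0.05 was seen for 2, 0 and 0 of them, the 2 being Apoc3 (unadjusted p 0.0164) and Apoa4 (0.0396).

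Genes that act with them were read against the same 18.9% of genes called in wild-type total RNA. Transcription factors had 8 of 14 called, including Nr1d1 with a fitted ratio of 46.6 peaking at ZT6.8 and Nr1d2 (8.84, ZT9.5). Receptors and lipid export had 4 of 12, with the sterol exporters Abcg8 (2.50) and Abcg5 (1.88) peaking at ZT8.0 and ZT9.3 and Sdc1 (1.95), a proteoglycan that binds remnants, at ZT21.98. Among remodelling genes 2 of 9 were called, Angptl8 (4.66), which restrains lipoprotein lipase, peaking at ZT18.5 and Lipg (2.12) at ZT11.6. Assembly had 2 of 9, Sort1 (2.39, ZT5.4) and Tm6sf2 (1.65, ZT21.4), and other apolipoproteins 1 of 10, Saa4 (2.09, ZT14.5). In Bmal1-/- RNA these 5 lists had 0 called with edgeR and 2 genes at an unadjusted p under 0.05.

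Nuclear against total RNA of the wild type shows where a transcript's share of RNA lies. The 10 genes took 8.81% ± 2.28 (SD, n = 36) of nuclear gene counts, against 3.99% in total RNA. By edgeR 6 were higher in nuclear RNA, 3 were lower and Apob did not pass (log2 0.03, adjusted p 0.811). These 9 of 10 stand beside 83.8% of 11864 genes called, 41.6% higher and 42.1% lower, and the median change was 0.95 for the 10 genes and -0.0069 over all. CPM is a share of each library, so a higher nuclear CPM is a larger share of nuclear RNA and not more molecules.

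Apoe was the highest member in nuclear RNA too. Its nuclear libraries ran from 28797 through a median of 57399 to 94114 CPM, against 4158, 22699 and 33432 CPM in total RNA, and 34 of 36 lay above every total library, short of the full separation that 2.59% of genes showed with nuclear higher and 4.91% with nuclear lower (log2 1.32, SE 0.12, adjusted p 2.83e-16). Apoa1 was 10075 CPM at the median (5170 to 16099), and again 34 of 36 lay above every total library (log2 1.503, SE 0.11, adjusted p 1.11e-20). Apoa2 (log2 1.10), Apoc3 (1.03) and Apoa5 (0.86) rose likewise, with 30, 31 and 24 nuclear libraries above every total one. Apoa4 changed by 1.61 (SE 0.24, adjusted p 2.24e-08), with 13 nuclear libraries above all total ones and a nuclear range of 20.2 to 324 CPM. Its size varied with the setting, from 1.95 in replicates 1 to 3 to 0.92 in replicates 4 to 6, and it passed in both. Apoh (-0.75, SE 0.09) and Apom (-0.79, SE 0.14) were lower in nuclear RNA, with 28 and 15 nuclear libraries below every total one, and Apoc1 was lower by a little (-0.22, adjusted p 0.0235). That small call was lost in replicates 1 to 3 (adjusted p 0.402), in replicates 4 to 6 (0.0507) and in the fit of all kinds of sample (0.0766).

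Neighbours on a chromosome did not share 1 direction in nuclear RNA. The 4 genes of the chromosome 9 cluster were all higher, whereas on chromosome 7 Apoe was higher and Apoc1 lower. As context, the nuclear RNA Neat1 had a median of 1411 CPM in nuclear and 157 CPM in total RNA, while Malat1, also known as nuclear, had 1482 and 1750.05. Beside the 83.8% of all genes called, lists of acting genes had 10 of 12 receptors called (8 higher, 2 lower), 7 of 9 remodelling genes (6 higher, 1 lower), 6 of 9 assembly genes (4 higher, 2 lower), 10 of 14 transcription factors (4 higher, 6 lower) and 8 of 9 tested other apolipoproteins (3 higher, 5 lower). Gpihbp1, the anchor of lipoprotein lipase, stood at 1.69.

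Polysomal against total RNA bears on which transcripts are on ribosomes. By edgeR 7 of 10 were called: 3 were higher in polysomal RNA, Apoa2, Apoc3 and Apoc1, and 4 were lower, Apoa4, Apoe, Apoh and Apoa5. This stands beside 76.1% of 11556 genes called, 38.4% higher and 37.6% lower, and the median change was -0.26 for the members and 0.01 over all genes. The count was 10 with DESeq2, 9 with RLE scaling, 9 with a replicate block, 9 without polysomal replicate 1 (2 higher and 7 lower), 10 in replicates 4 to 6 and 4 in replicates 1 to 3.

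The 3 higher genes encode small exchangeable apolipoproteins. Apoa2 held 8634 CPM in its lowest polysomal library, 13523 at the median and 26820.3 at the highest, against at most 6749 CPM in total RNA. All 36 polysomal libraries lay above all 36 total libraries, a separation seen with polysomal higher in 2.26% of genes and with polysomal lower in 2.18%, and the log2 change was 1.43 (SE 0.09, adjusted p 4.5e-23). Apoc3 followed with a median of 3891 CPM against 1697 (log2 1.20, SE 0.11, adjusted p 7.47e-16), and 29 polysomal libraries above every total one. Apoc1 rose by 0.38 (SE 0.11, adjusted p 0.00136), with 15 such libraries, but without polysomal replicate 1 this was 0.20 and did not pass (adjusted p 0.0635).

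Apoe, the most abundant member, went the other way. Its polysomal libraries ran from 5245 through 13094 to 28609 CPM, and although the ranges overlapped, the polysomal mean was lower at each of the 6 times (log2 -0.89, SE 0.12, adjusted p 2.36e-09). Apoa4 fell by 0.91 on the log2 scale (adjusted p 8.38e-07), with 15 polysomal libraries below every total one. Apoh (-0.34) and Apoa5 (-0.28) were lower by less, and both calls were lost in replicates 1 to 3 (adjusted p 0.12 and 0.129). In polysomal replicate 1, Apoh and Apoa5 averaged 1303 and 708 CPM, above the 1096 and 535 CPM of wild-type total replicate 1. Apoe averaged 21577 CPM there, against 24082 CPM in wild-type total replicate 1. The calls on Apoe, Apoa4, Apoh and Apoa5 were kept without polysomal replicate 1. Thus Apoa2 and Apoc3 stood higher in both fractions than in total RNA, and Apoh stood lower in both; both comparisons share the total RNA libraries.

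For Apom, Apoa1 and Apob the call changed with the setting. Polysomal replicate 1 had the highest mean of the polysomal replicate numbers for every member except Apob. In the first pair, Apom averaged 655 CPM ± 204 (SD, n = 6) in those libraries and from 122 to 194 CPM in the other replicate numbers, while Apoa1 averaged 5179 ± 1590 in them and 3075 ± 761 (SD, n = 30) in the rest. With all libraries the changes were -0.46 for Apom (adjusted p 0.0545), -0.13 for Apoa1 (0.232) and -0.24 for Apob (0.152). Without replicate 1 they were -1.14 (1.01e-09), -0.32 (0.0012) and -0.37 (0.045). With every library kept, DESeq2 called Apom, Apoa1 and Apob (adjusted p 0.0147, 0.0388 and 0.0377), RLE scaling called Apom and Apoa1 (0.0219 and 0.0456), and a replicate block called Apom (-0.81, 0.00337) and Apob (-0.42, 0.00513) but not Apoa1 (-0.16, 0.21). Polysomal Apob ranged from 137 to 2379 CPM, and its highest replicate mean was that of replicate 2 (1321 CPM), with 983 CPM in replicate 1. Blood markers, the globin genes, summed to a median of 8749 CPM in polysomal RNA and 2504 CPM in total RNA, and their part in these results was not tested.

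Beside the 76.1% of all genes called in polysomal RNA, 7 of 9 assembly genes were called (4 higher, 3 lower), with Sar1b at 1.17 and Tm6sf2, which acts in lipid loading of particles, at 1.08, and A1cf, the partner of the Apob editing enzyme, at -1.34. Remodelling genes had 6 of 9 called, 5 of them lower, among them the lipase inhibitors Angptl8 (-2.68) and Angptl4 (-1.49). Receptors had 8 of 12 (5 higher, 3 lower), transcription factors 9 of 14 (5 higher, 4 lower) and other apolipoproteins 8 of 10 (4 higher, 4 lower).

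Polyadenylation site usage, the share of a gene's site counts at each site, divided the members into simple and complex genes. In wild-type total RNA 4 genes placed nearly all counts at the site at their annotated end: 99.2% ± 0.378 (SD, n = 36) for Apoe, 99.0% ± 0.926 for Apoa2, 98.6% ± 0.711 for Apoc3 and 96.0% ± 2.13 for Apoa4. Apoa1 put 92.2% ± 3.08 there. Apom (76.4% ± 6.09), Apoh (74.1% ± 5.51) and Apoc1 (73.1% ± 5.89) had a second site of weight upstream, at 20.2%, 25.9% and 26.2%. Apoa5 was counted mainly at chr9:46270991-46271498, which ends 423 bp before the annotated end, with 88.7% ± 1.98, and its site at the end held 2.51%. Positions of sites are those of the authors' list.

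Apob, a gene of 15 listed sites, had little at its end. The site at the annotated end took 3.49% ± 1.41 of counts in wild-type total RNA, while chr12:8005741-8005941, 10898 bp before that end, took 42.2% ± 3.91 and chr12:8009890-8010098, 6741 bp before it, took 20.8% ± 4.204. Its level in CPM is thus mostly a count from inside the gene. Whether these places, or the upstream sites of the other members, lie in an exon, an intron or next to genomic A runs is not analysed here.

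Between genotypes the calls on the members' sites changed with the setting. Of 38 sites, 13 reached the 5% share and count needed, and edgeR called 0 of them, beside 8.8% of 13166 sites (4.72% with a higher and 4.08% with a lower share); 4 had an unadjusted p under 0.05 and edgeR's diffSpliceDGE called 1. The nearest to the threshold was the upstream Apoa5 site at chr9:46270631-46270898, with 10.03% ± 2.18 in Bmal1-/- and 8.75% ± 2.03 in wild type (log2 0.20, adjusted p 0.0683). The diffSpliceDGE call was the upstream site of Apoa1, at 9.78% ± 3.603 against 7.77% ± 3.08 (adjusted p 0.0221). A replicate block called 3 sites, the upstream site of Apoa1 (log2 0.35, adjusted p 0.000292), its end site (-0.032, 0.00212) and the upstream site of Apoa5 (0.20, 0.016), and replicates 4 to 6 called 2 sites of Apob (0.14 and -0.20, adjusted p 0.0022 and 0.00872). Over the day 0 of 13 sites had a rhythmic share in wild-type total RNA (0.35% of sites called), with 1 at an unadjusted p under 0.05.

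In the fractions nearly every tested site differed, as most sites of other genes did. By edgeR 15 of 16 sites were called in nuclear RNA (9 higher and 6 lower, beside 78.7% of 11642 sites, 35.7% higher and 43% lower) and 14 of 15 in polysomal RNA (8 higher and 6 lower, beside 70.6% of 12334, 33.4% higher and 37.2% lower). Apob sites at chr12:7987761-7987828, chr12:8006682-8006852 and chr12:8015936-8016067 held under 5% in total RNA and entered these tests only through the fraction where they are high, so these counts are a description.

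The upstream sites of Apom and Apoh lost share in both fractions, and that of Apoc1 in nuclear RNA. For Apom at chr17:35130079-35130179 the share was 20.2% ± 5.01 in total, 7.01% ± 4.16 in nuclear and 14.1% ± 4.69 in polysomal RNA (log2 -1.54 and -0.50, adjusted p 1.39e-15 and 0.000108), although the polysomal change was -0.15 and did not pass in replicates 4 to 6 (adjusted p 0.44). For Apoh at chr11:108411993-108412196 it was 25.9% ± 5.51, 10.8% ± 5.91 and 13.0% ± 4.94 (log2 -1.28 and -0.99, adjusted p 2.6e-11 and 3.71e-11). For Apoc1 at chr7:19691885-19692037 it was 26.2% ± 5.63, 17.8% ± 5.38 and 22.3% ± 5.13, and the polysomal value did not pass (adjusted p 0.0524). Apoa5 did the reverse: its upstream site took 8.75% ± 2.03 of total, 17.8% ± 5.24 of nuclear and 22.6% ± 7.46 of polysomal counts (log2 1.01 and 1.36, adjusted p 3.61e-18 and 2.49e-20). The upstream site of Apoa1 gained less, from 7.77% ± 3.08 to 11.4% ± 3.83 in nuclear and 11.7% ± 6.66 in polysomal RNA (edgeR log2 0.55 and 0.58, adjusted p 0.000134 and 0.004). In polysomal replicate 1 that Apoa1 site held 4.59%.

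The Apob sites that entered only through a fraction are given by their shares, with no test. The most upstream site, chr12:7987761-7987828, which lies 29011 bp before the annotated end, held 1.14 to 2.61% in total libraries and 7.12 to 22.5% in nuclear ones, with medians of 1.73% and 12.8%. It held 4.92% ± 1.63 in polysomal RNA. The site at chr12:8006682-8006852 held 3.41 to 6.42% in total RNA and 13.8 to 27.4% in polysomal RNA, and 8.07% ± 2.24 in nuclear RNA. At chr12:8015936-8016067 the share was 3.34% ± 0.501 in total, 9.41% ± 2.04 in nuclear and 8.63% ± 2.89 in polysomal RNA. The strongest site of total RNA, which passed the 5% share there, at chr12:8005741-8005941, went from 42.2% ± 3.91 to 25.0% ± 6.36 in nuclear and 22.05% ± 5.38 in polysomal RNA (log2 -0.76 and -0.93, adjusted p 2.73e-16 and 4.41e-19). Bmal1-/- total RNA held 43.1% ± 2.53 at that site.

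**Figure D5:**
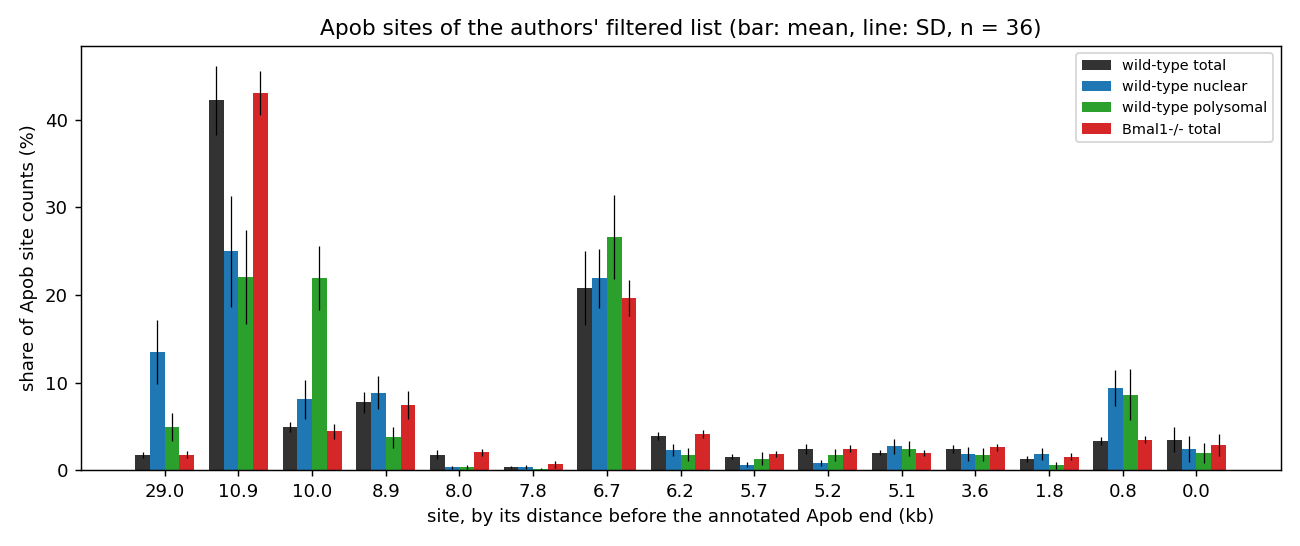
Share of Apob site counts (%) at each of its 15 listed sites, ordered 5′ to 3′ and labelled by distance before the annotated end in kb, with mean bars and SD lines (n = 36) for the 4 kinds of sample. Total RNA of both genotypes peaks at the site 10898 bp before the end (42.2% and 43.1%), and nuclear and polysomal RNA hold more at the sites 29011 bp and 9987 bp before it.

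Each member was also set beside the 2316 genes with a mean of at least 50 CPM, by Pearson r of log2 CPM over the 24 means of kind of sample and time. The closest were Ppib for Apoa2 (r 0.988), Plec for Apoe (0.986), Tmem205 for Apoc3 (0.985), Mst1 for Apoa1 (0.978), Amy1 for Apoh (0.963), Uqcrq for Apoc1 (0.954), Fuca1 for Apoa4 (0.941), Tns1 for Apoa5 (0.940), Tlcd2 for Apom (0.878) and Cdh2 for Apob (0.850). Among the members themselves Apoa2 and Apoc3 were the most alike (0.972), followed by Apoa1 with Apoe (0.926) and Apoa4 with Apoe (0.920). The 24 means fall into the 4 kinds of sample, so these values mostly describe differences between fractions.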

How the data were processed

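Liver RNA of 144 libraries was measured by 3′ mRNA sequencing, per the labels' protocols. The authors deposited raw counts per gene symbol and per polyadenylation site with 1 column per library, and a filtered site list whose score column is 0 throughout and was not used as a value. The submitters' processing notes name STAR 2.4.2a, edgeR and HOMER and the builds mm10 and GRCm38.p5, with no role for each. Groups and replicate numbers came from the titles, and 0 columns were left without a sample. The 10 members and the lists were chosen with earlier results of these data known.

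Levels in CPM are counts scaled to a total of 1000000 per library. Of 360 pairs within groups 0 held the same values, and a chi-square over genes gave at least 4.35 per degree of freedom. A site was assigned to the RefSeq gene (GRCm38.p6) that held it on its strand, up to 1000 bp beyond the end counted in, where it lay in no other gene and the summed site counts reached 0.3 to 1.5 times the gene count. Of 29199 sites 26124 found 1 of 8923 genes. For 2 members, Apoc1 and Apoc3, the strand was taken from the sites.

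Tests used edgeR 4.0.16 in R 4.3.3 (quasi-likelihood, robust, TMM scaling) on the deposited counts, over all genes or sites that averaged 10 counts or more. P-values were adjusted by Benjamini-Hochberg and called under 0.05. All 10 members passed that filter in each fit. Levels were compared over the mean of the 6 times, in fits of 2 kinds of sample. Rhythm was a cosine and sine of 24 h, and a difference in rhythm their interaction with kind of sample. For usage, the offset of each site count was the log of its gene's site total plus 0.5, and sites needed 5% of a gene that averaged 50 counts. The scripts were tested on simulated data. Alternatives were DESeq2 1.42.0, diffSpliceDGE, RLE scaling, a filter of at least 1 count, sites of at least 1%, a single fit of all 4 kinds, time as a factor, a replicate block, and replicates 1 to 3 or 4 to 6. Leaving out libraries that stood apart, or polysomal replicate 1, was chosen after seeing the data. Members are named by the rule of their choice, and from each list at most the 3 called genes with the widest change. Some genes of the lists are not reported here by name.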

Additional observations from a re-analysis of the deposited data

Results flagged for a closer look

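Each member was checked in each of the 24 groups of 6 libraries for a highest or lowest library far from its nearest neighbour (a gap, as a share of the group's range, above Dixon's 95% critical value). Of 240 checks 21 stood out, 16 for a highest and 5 for a lowest library, where chance gives about 1 in 20 groups.

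Polysomal replicate 1 held 6 of them. Apom in polysomal replicate 1 was 524 CPM at ZT2 (next 258), 619.8 at ZT10 (next 239), 786 at ZT18 (next 204) and 998 at ZT22 (next 237). Apoa1 there was 5959 CPM at ZT10 (next 3574), and Apoh 1504 CPM at ZT18 (next 812). Other polysomal libraries that stood out were ZT6 replicate 2 for Apob (2379 CPM, next 1066) and ZT14 replicate 5 for Apoa4 (26.3 CPM, next 16.4).

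In wild-type total RNA, ZT2 replicate 4 was low for Apoe (4158 CPM, next 21684) and Apoc3 (1113 CPM, next 1680). At ZT22, replicate 4 was low for Apoh (805 CPM, next 1086) and replicate 3 high for Apoa4 (83.9 CPM, next 36.01). In nuclear RNA, ZT2 replicate 3 was high for Apoa4 (324 CPM, next 89.5) and Apoc3 (6918 CPM, next 3853), and replicate 4 high for Apob at ZT6 (1247 CPM, next 876) and ZT10 (1683 CPM, next 928). Nuclear ZT18 replicate 5 was high for Apoh (1511 CPM, next 638) and ZT6 replicate 1 low for Apoa1 (5170 CPM, next 9673). In Bmal1-/- RNA, Apom was 445 CPM in ZT2 replicate 6 (next 181), Apoc3 1952 CPM in ZT6 replicate 6 (next 1794) and Apoh 1931 CPM in ZT6 replicate 2 (next 2083).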

How the results depend on the processing

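Over 157 results and their alternatives, 1130 of 1212 values kept their direction and their side of the threshold, 35 newly passed, 33 no longer passed and 14 reversed. Of the 14, none had passed in the fit reported. Counts of members called moved by over 1.5 times as follows. For Bmal1-/- levels, 4 became 2 with all 4 kinds of sample in 1 fit, 7 without the libraries that stood apart and 7 in replicates 1 to 3. For polysomal levels, 7 became 4 in replicates 1 to 3. For usage in Bmal1-/-, 0 became 3 with a replicate block, 2 in replicates 4 to 6, 1 with sites of at least 1% and 1 with diffSpliceDGE. Nuclear usage went from 15 to 28 and polysomal usage from 14 to 27 with sites of at least 1%, where more sites are tested, and polysomal usage to 8 with diffSpliceDGE. The rhythm count of wild-type total RNA went from 1 to 0 in the single fit and in replicates 4 to 6, and that of polysomal RNA from 0 to 1 in the single fit, for Apob. For the other moves the cause was not tested.

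Reversed log2 changes were, in replicates 1 to 3, Apoa4 (-0.25) and Apoc3 (0.058) for Bmal1-/-, Apob (-0.099) in nuclear, and Apoa1 (0.23), Apob (0.072) and Apom (0.42) in polysomal RNA, and for usage in Bmal1-/- Apob sites 2 (-0.081), 4 (0.069) and 7 (0.066), counted from the 5′ end. In replicates 4 to 6 they were Apoc1 (0.076) for Bmal1-/-, Apoh sites 1 (0.057) and 2 (-0.021) for usage in Bmal1-/-, and Apob site 7 (-0.10) for nuclear usage. Apoh has only these 2 listed sites, so their shares move in opposite ways. With a filter of at least 1 count Apob in nuclear RNA was -0.077.

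Same-numbered libraries deviated together between nuclear and total RNA (mean r 0.39 over 36 pairs, 35 over 0.1, 31 best with their own number) and less so between genotypes (0.08, 20 over 0.1, 14 best with their own number). Between polysomal and total RNA the mean r was -0.14 (1 over 0.1, 0 best with their own number). The labels do not tie the numbers to animals and no comparison had every pair over 0.1, so they were not treated as pairs. For nuclear against total RNA, with 35 of 36 pairs over 0.1, the reported p-values thus take the libraries as independent. Whether these libraries share livers was not tested. With the replicate block 5 members were called for Bmal1-/- levels in place of 4 (Apob added), 9 for nuclear in place of 9 and 9 for polysomal levels in place of 7 (Apob and Apom added). Depth limits Apoa4 most, with as few as 21 counts in a polysomal library.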
